A study of Mus musculus with 32 samples.

Results

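The comparison described here set injured mouse spinal cord that carried the treatment Nkx6.1 against sham-operated cord, both taken 35 days after the operation. Its members were chosen by their titles, and were the 3 libraries labelled as spinal cord injury with Nkx6.1 and the 3 sham libraries of that day, 6 of the 32 libraries of the series. The mice were C57BL/6J, 8 to 12 weeks old, and both groups shared strain, tissue and time. The series holds bulk RNA-seq of snap-frozen cord segments around the lesion, from sham, injured control, Gsx1 and Nkx6.1 animals at 3, 14 or 35 days. Other libraries used beside the 6 were the 4 injured cords with the control treatment at 35 days and the 3 Nkx6.1 and 3 sham cords at 3 days. The injury method, the control agent, the route by which Nkx6.1 was delivered, the cells that received it and the cord level were not found in the labels. Whether each replicate is another animal is not stated, and p-values then measure only how far these samples vary, which may be technical.

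Nkx6.1 (gene Nkx6-1) is a homeodomain transcription factor that patterns the ventral progenitor zone of the embryonic spinal cord and takes part in the specification of motor neurons and ventral interneurons. After a cord injury, resident microglia and incoming macrophages take up myelin debris, astrocytes enlarge and border the lesion, and fibroblast-like cells lay down a collagen-rich scar. Myelin is rich in cholesterol, which oligodendrocytes make locally and which phagocytes take up with debris.

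Most of the genes of cholesterol synthesis fell in the comparison, so the RefSeq promoters (GRCm38.p6, from 250 bases before to 50 after the start site) of 4 of them that fell are shown with the CCAAT box, the letters bound by the factor NF-Y, in capitals on either strand. CCAAT was found on 1 or both strands in 12 of the 12 cholesterol genes that had a promoter entry, against 41.1% of 27025 genes with one.
Hmgcs1, chr13:119690101-119690400, plus strand: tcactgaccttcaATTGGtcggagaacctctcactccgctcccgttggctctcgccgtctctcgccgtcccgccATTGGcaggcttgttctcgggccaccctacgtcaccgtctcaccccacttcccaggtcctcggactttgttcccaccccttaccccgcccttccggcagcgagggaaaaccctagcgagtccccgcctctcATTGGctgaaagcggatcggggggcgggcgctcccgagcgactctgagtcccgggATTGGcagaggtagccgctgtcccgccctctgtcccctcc
Insig1, chr5:28071162-28071461, plus strand: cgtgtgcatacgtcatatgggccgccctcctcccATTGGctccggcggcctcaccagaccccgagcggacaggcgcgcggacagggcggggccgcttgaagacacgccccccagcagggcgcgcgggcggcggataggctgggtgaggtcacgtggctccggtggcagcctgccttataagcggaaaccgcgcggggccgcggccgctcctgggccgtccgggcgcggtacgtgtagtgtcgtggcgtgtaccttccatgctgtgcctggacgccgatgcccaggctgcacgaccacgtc
Cyp51, chr5:4104648-4104947, minus strand: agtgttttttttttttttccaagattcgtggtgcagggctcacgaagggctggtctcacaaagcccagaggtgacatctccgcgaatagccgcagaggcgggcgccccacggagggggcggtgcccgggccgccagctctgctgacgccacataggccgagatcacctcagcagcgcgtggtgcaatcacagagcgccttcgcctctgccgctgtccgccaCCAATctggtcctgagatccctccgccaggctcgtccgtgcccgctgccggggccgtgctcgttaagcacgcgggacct
Idi1, chr13:8885356-8885655, plus strand: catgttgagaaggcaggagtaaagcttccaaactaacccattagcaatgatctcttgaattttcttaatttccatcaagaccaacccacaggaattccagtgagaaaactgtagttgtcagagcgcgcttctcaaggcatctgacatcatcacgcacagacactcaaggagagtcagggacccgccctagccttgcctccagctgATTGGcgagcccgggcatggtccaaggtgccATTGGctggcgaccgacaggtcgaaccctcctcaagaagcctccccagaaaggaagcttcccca
ATTGG is CCAAT read on the other strand. The Hmgcs1 window held 4 matches, the Idi1 window 2, and the Insig1 and Cyp51 windows 1 each. The 9 genes that fell and had an entry are part of the 12 cholesterol genes above, so that all 9 held CCAAT follows from that count. The other 6 strings searched, on both strands of the same windows, do not hold CCAAT or one another whole. The sterol response string TCACNCCAC was in 1 of 12 (1.44% of all genes), and the E-box CACGTG was in 4 of 12 (8.09% of all genes). The AP-1 string TGANTCA was in 1 of 12 (8.97% of all genes), the PU.1 core GAGGAA in 1 of 12 (31.3%), and the homeodomain string TTAATTA in 0 of 12 (3.56%). The interferon response string, GAAA followed after any 2 bases by GAAA, was in 0 of the 12 cholesterol promoters and in 9 of 16 promoters of the interferon list, against 3.99% of all genes. It is shown in capitals for Bst2, the antiviral membrane protein tetherin and the interferon gene with the smallest p in the comparison, where 2 matches overlap.
Bst2, chr8:71537423-71537722, minus strand: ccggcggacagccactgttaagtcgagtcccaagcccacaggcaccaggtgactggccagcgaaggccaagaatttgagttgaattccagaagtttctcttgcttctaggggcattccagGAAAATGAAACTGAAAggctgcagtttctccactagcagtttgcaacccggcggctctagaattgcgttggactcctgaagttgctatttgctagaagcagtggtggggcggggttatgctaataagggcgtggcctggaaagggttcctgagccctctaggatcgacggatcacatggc
A match is a description of the letters and not of a bound site.

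The 6 libraries held 11.7 to 15.9 M reads assigned to genes, and 17211 to 17937 genes were detected in each. Across genes, which are not independent replicates, Pearson's r of log2 CPM was 0.988 to 0.992 between sham libraries and 0.967 to 0.984 between Nkx6.1 libraries. The Nkx6.1 libraries differed in strength: replicate 3 held the highest value of its group in 950 of the 1040 genes that rose (91.3%), and replicate 2 the lowest in 700 (67.3%). Xist, the RNA of the inactive X chromosome, was over 100 CPM (counts scaled to a library of common size, after TMM adjustment) in sham replicate 3 and Nkx6.1 replicate 2 only, so each group held 1 such library. Among the 4 injured control libraries, replicates 1 and 4 were over that level, and replicate 4 also held the Y-linked Ddx3y at 32.1 CPM. Of 7 red blood cell genes the 4 globin genes were listed at 0 in all 6 libraries, and the 7 summed to 9.10 to 46.8 CPM in sham and 12.8 to 81.2 CPM in Nkx6.1 cords, highest in replicate 3. Of the 3 tested, 0 were called by edgeR or DESeq2 (median log2 fold change 2.04, with 1 at an unadjusted p under 0.05). The 12 skeletal muscle genes summed to 114 to 231 CPM in sham and 88.1 to 196 CPM in Nkx6.1 cords. The part of either tissue in the results was not tested.

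Nkx6-1 itself was measured first. It stood at 8.45, 5.09 and 7.55 CPM in sham replicates 1 to 3 and at 8.40, 7.90 and 12.4 CPM in Nkx6.1 replicates 1 to 3. The groups overlapped, and the difference did not pass the test (log2 fold change 0.44 ± 0.23 SE, adjusted p = 0.264, edgeR's quasi-likelihood test with Benjamini-Hochberg adjustment). The injured control cords held 10.98 ± 1.26 CPM (SD, n = 4), above the mean of the Nkx6.1 cords (9.55 ± 2.45, SD, n = 3). The level of Nkx6-1 in these counts therefore does not set the libraries labelled Nkx6.1 apart from injured controls, and the labels are taken as given. Gsx1, the other factor of the series, had 2 counts in all in the sham libraries and 4 in the Nkx6.1 libraries.

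Of 16314 genes tested, 1174 (7.20%) differed between Nkx6.1 cords and sham at an adjusted p under 0.05. Of these, 1040 rose (6.37% of genes tested) and 134 fell (0.821%). The rises were also the larger changes, with 772 of them at least 2-fold and 9 of the falls at least 2-fold. The median log2 fold change of all genes was 0.0027. Among the 1174 called genes, the CPM of the groups overlapped for 15. Without Nkx6.1 replicate 3 the test called 425 genes, of which 423 were among the 1174, and without sham replicate 2 or 3 it called 713 or 688.

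**Figure D1:**
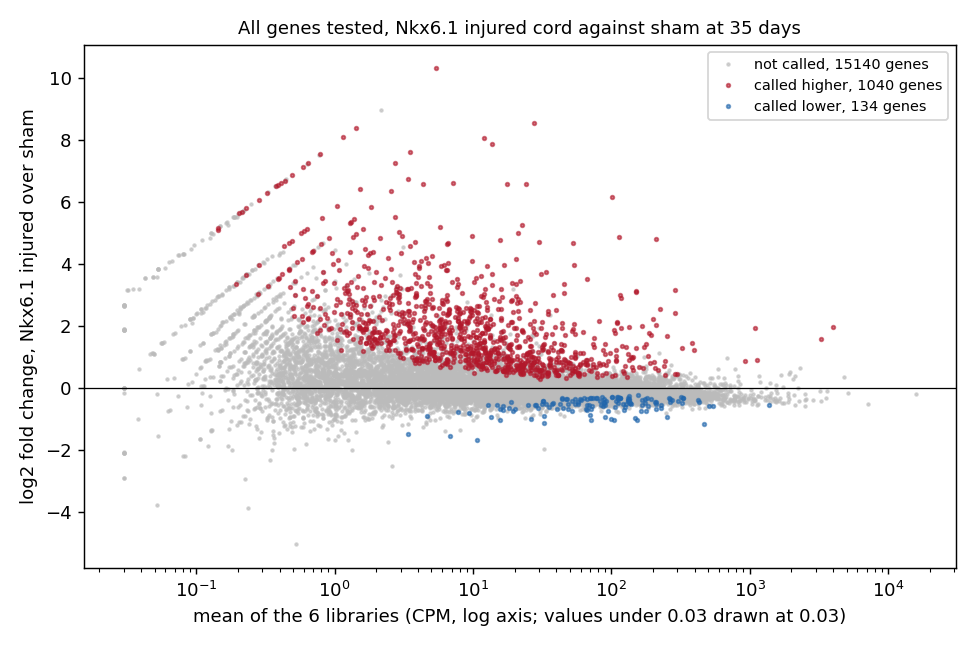
Log2 fold change of each gene tested (Nkx6.1 injured cord over sham at 35 days, vertical axis) against its mean CPM over the 6 libraries (log axis). The 1040 genes that rose spread far above 0, while the 134 that fell lie mostly within 1 log2 unit below it.

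The largest rises were of genes close to silent in sham cord. Mmp12, macrophage elastase, had no count in sham and 7.32, 9.06 and 16.1 CPM in Nkx6.1 replicates 1 to 3, at least 134-fold higher when sham is set to 3 counts over the group. Cst7, cystatin F, an inhibitor of lysosomal proteases in activated microglia, was at 0, 0.0848 and 0.164 CPM in sham and at 22.5, 4.24 and 45.3 CPM in Nkx6.1 cords, a ratio of 314 (95% counting interval 107 to 1525). Cd200r4, an activating receptor of myeloid cells, had no count in sham and was at least 35.6-fold higher. No overlap between the groups was a condition for naming the largest rises and is not a further result. Ms4a7, a gene of macrophages, stood at 1 count in sham against 246 in the Nkx6.1 libraries, a ratio of 209 (37.1 to 8273). Sprr1a, a gene of injured and regrowing neurons, stood at 1 count against 316, a ratio of 268 (47.7 to 10617). Both intervals are wide because of the single sham count. Wisp2 (log2 fold change 8.57 ± 1.19 SE, adjusted p = 3.59e-05) and Igfbpl1 (7.87 ± 1.14, adjusted p = 5.52e-05) completed this set together with the homeobox gene Hoxc13, which is taken up with the other Hox genes further on. Replicate 3 was far above the others for both, at 123 CPM for Wisp2 against 25.9 and 15.8 CPM in Nkx6.1 replicates 1 and 2.

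Most genes of macrophages and phagocytes rose. Of 24 tested, 19 rose and none fell, where 6.37% of all genes rose, and the median log2 fold change of the list was 2.99 against 0.0027 for all genes. Itgax, the integrin CD11c of dendritic cells and activated microglia, was at 0.470, 0.339 and 0.246 CPM in sham replicates 1 to 3 and at 23.7, 24.5 and 55.7 CPM in Nkx6.1 replicates 1 to 3 (log2 fold change 6.58 ± 0.60 SE, adjusted p = 4.38e-07). Gpnmb, a glycoprotein of lipid-laden phagocytes, was at 1.89 to 3.73 CPM in sham and at 163, 117 and 317 CPM in Nkx6.1 cords (6.16 ± 0.60, adjusted p = 9.24e-07). Lyz2, the lysozyme of myeloid cells, went from 9.02 to 18.3 CPM in sham to 334, 195 and 688 CPM (4.83 ± 0.48, adjusted p = 9.24e-07). In each case the lowest Nkx6.1 library was many times above the highest sham library. Cybb, the catalytic subunit of the phagocyte oxidase, rose by a log2 fold change of 3.97 ± 0.45. The 5 members that did not pass were Spp1, Cd163, Arg1, Ctsk and Fabp5, named here after their values were seen, at log2 fold changes from 0.10 (Fabp5) to 1.34 (Arg1). With any 1 of the 6 libraries left out, 16 to 20 of the 24 rose. In bulk tissue, more cells of a type and more RNA per cell cannot be told apart, here and in every list that follows.

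**Figure D2:**
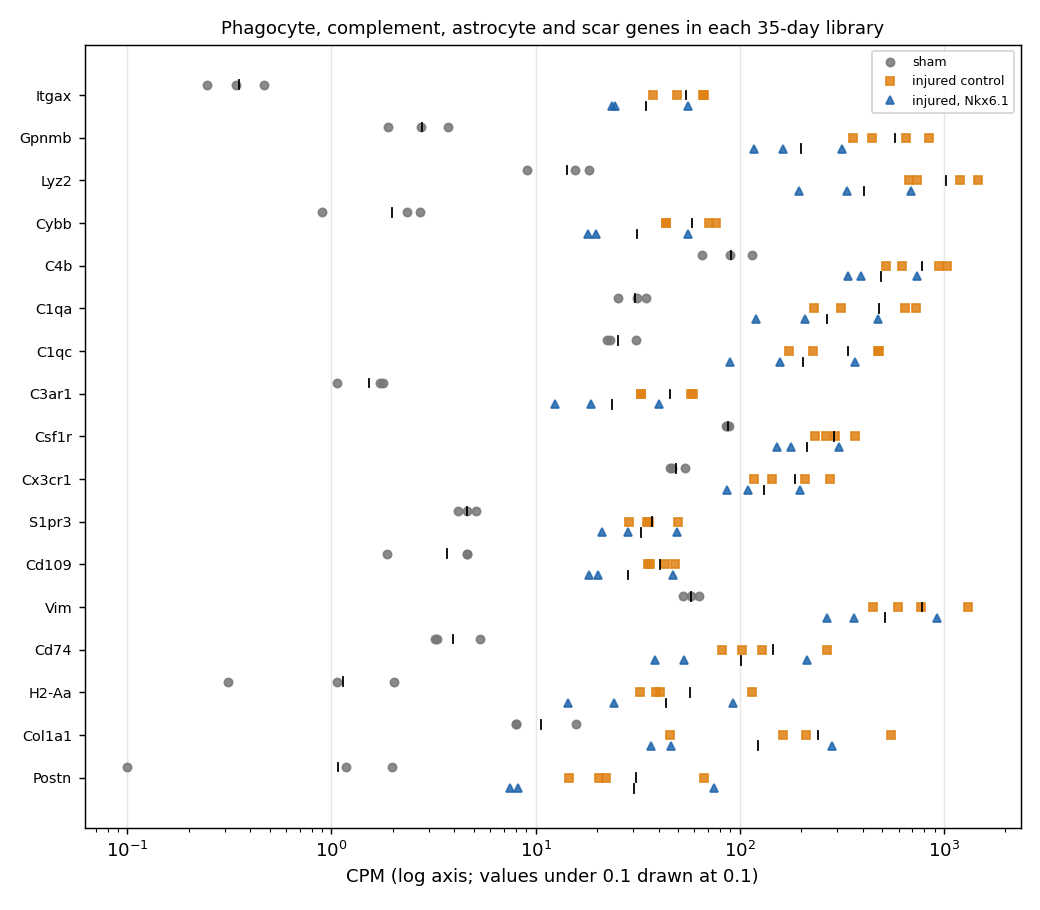
CPM (log axis) of genes of phagocytes, complement, microglia, reactive astrocytes, antigen presentation and scar in each library at 35 days: 3 sham, 4 injured control and 3 Nkx6.1 cords. Each point is 1 library and each short line a group mean. All Nkx6.1 points lie to the right of all sham points for every gene drawn, and the highest Nkx6.1 point is replicate 3 throughout.

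Markers of homeostatic microglia had a smaller median change. Of 12 tested, 7 rose and none fell, where 6.37% of all genes rose, with a list median of 1.09. Csf1r, the receptor on which microglia depend for survival, stood at 86.0, 86.3 and 88.9 CPM in sham and at 178, 153 and 306 CPM in Nkx6.1 cords (log2 fold change 1.29 ± 0.22 SE, adjusted p = 0.000372). Cx3cr1, the fractalkine receptor, stood at 45.7 to 54.2 CPM in sham and at 110, 86.5 and 197 CPM (1.43 ± 0.26, adjusted p = 0.000600). Gpr34 also rose, by 1.25 ± 0.28. The purine receptor P2ry12 and the factor Sall1, chosen after their values were seen as defining markers of resting microglia, stood at log2 fold changes of -0.07 and -0.04 and did not pass. Without Nkx6.1 replicate 3 the count of rises in this list was 3, and it was 4 without sham replicate 1 or 3.

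Lysosomal genes and lipid handling genes moved in the same direction. Of 23 genes of the lysosome and its proton pump, 15 rose (median 1.24), where 6.37% of all genes rose. The cathepsins Ctss and Ctsh rose by 2.57 ± 0.37 and 2.39 ± 0.35. Atp6v0d2, a proton pump subunit of macrophages and osteoclasts, had 2 counts in sham and 301 in the Nkx6.1 libraries, a ratio of 128 (35.0 to 1059). The 8 members that did not pass include the general lysosomal gene Lamp1 (0.11) and the pump subunits Atp6v0d1 (-0.10), Atp6ap1 (-0.08) and Atp6v1b2 (-0.34), named after their values were seen. Of 19 genes of lipid uptake and efflux, 9 rose (median 1.22). Apoe, the main lipid carrier of the nervous system, was at 1817, 1579 and 1485 CPM in sham and at 5852, 4068 and 9273 CPM in Nkx6.1 cords (1.98 ± 0.34, adjusted p = 0.000372). Abca1, the transporter that loads cholesterol onto such carriers, rose by 1.98 ± 0.27, Lpl, lipoprotein lipase, by 3.09 ± 0.56, and Ch25h, cholesterol 25-hydroxylase, by 4.91 ± 0.68.

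Of 17 complement genes, 10 rose and none fell, where 6.37% of all genes rose. The count was 10 with each of the 6 libraries left out in turn. Its median was 2.44. C1qa, a chain of the initiating complex of the classical pathway, stood at 34.7, 25.4 and 31.5 CPM in sham and at 208, 120 and 476 CPM in Nkx6.1 cords (3.14 ± 0.41, adjusted p = 2.39e-05), and C1qc rose by 3.00 ± 0.40. C4b, which follows C1 in the cascade, stood at 65.5 to 115 CPM in sham and at 393, 338 and 737 CPM (2.44 ± 0.28, adjusted p = 5.56e-06). C3ar1, the receptor of the C3a fragment, rose by 3.96 ± 0.53. The membrane inhibitors Cd55 (-0.11) and Cd59a (-0.49) and 5 others did not pass.

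Most genes of antigen presentation, about as many chemokine genes as not, and some lymphocyte genes were called, where 6.37% of all genes rose. Of 17 genes of class II and antigen presentation, 13 rose (median 2.16). Cd74, the invariant chain, was at 3.20 to 5.34 CPM in sham and at 53.5, 38.3 and 213 CPM in Nkx6.1 cords (4.69 ± 0.84, adjusted p = 0.000553), and the class II chains H2-Aa and H2-Ab1 rose by 5.28 ± 1.01 and 5.03 ± 0.98. Without Nkx6.1 replicate 3 the count was 5. Of 24 chemokine genes, 13 rose (median 3.44, or 3.07 with genes at 0 in sham set to their bound). Cxcl16 rose by 3.56 ± 0.46, Ccl3 by 5.05 ± 0.81, and Cxcr4, the receptor for Cxcl12, by 2.26 ± 0.42. The count was 4 without Nkx6.1 replicate 3, 6 to 8 without any 1 sham library and 7 with the 6 libraries alone. Of 14 cytokine genes, 6 rose, among them Csf2rb (3.51 ± 0.51) and Tgfb1 (2.09 ± 0.34), with 2 called without Nkx6.1 replicate 3. Without sham replicate 1, 2 or 3 the count was 4, 3 or 3, without Nkx6.1 replicate 2 it was 9, and with the 6 libraries alone it was 2.

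Of 17 T and NK cell genes, 7 rose, where 6.37% of all genes did, and all 7 rose from levels near 0. Cd3e, a chain of the T cell receptor complex, had no count in sham and 0.573, 0.998 and 2.31 CPM in Nkx6.1 replicates 1 to 3, at least 16.1-fold higher. Cd4 had 2 counts in sham and 51 in the Nkx6.1 libraries, a ratio of 21.6 (5.69 to 183). Lck rose by 2.69 ± 0.64 and Pdcd1 by 3.18 ± 0.65. The list median was 4.07, or 3.22 with the 4 genes at 0 in sham set to their bound. These calls rest on few counts: 1 gene was called without Nkx6.1 replicate 3, and 3 or 4 without any 1 sham library. With edgeR on the 6 libraries alone 1 gene was called, and with DESeq2 11. Of 9 B and plasma cell genes, Pax5 rose (no count in sham, at least 10.2-fold higher) and was not called without Nkx6.1 replicate 2 or 3 or any 1 sham library. Of 12 neutrophil genes, 2 rose, the receptor Csf3r (2.78 ± 0.31) and Lcn2 (2.66 ± 0.73), both of which other cells of injured cord also express, while the granule genes Mpo and Camp did not pass (adjusted p = 0.351 and 0.407). Of 22 type I interferon genes, 4 rose: Bst2 (3.61 ± 0.72), Zbp1, Mx1 and Ddx58 (1.45 ± 0.43). Bst2 stood at 0.902 to 2.54 CPM in sham and at 13.2, 5.99 and 43.7 CPM in Nkx6.1 cords, so replicate 3 was several times above the other two. The count was 1 without Nkx6.1 replicate 3 or any 1 sham library, 6 without Nkx6.1 replicate 1 and 8 without Nkx6.1 replicate 2. It was 2 with the 6 libraries alone and 8 with DESeq2.

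Reactive astrocyte genes rose nearly as a whole. Of 20 tested, 18 rose and none fell (median 2.43), where 6.37% of all genes rose. With any 1 library left out 12 to 19 rose. Vim, the intermediate filament vimentin, stood at 62.9, 57.6 and 52.6 CPM in sham and at 362, 269 and 920 CPM in Nkx6.1 cords (3.16 ± 0.39, adjusted p = 1.26e-05). S1pr3, a sphingosine phosphate receptor, stood at 4.18 to 5.09 CPM in sham and at 28.4, 21.2 and 49.1 CPM (2.83 ± 0.33, adjusted p = 6.25e-06). Cd109 rose by 2.94 ± 0.35 and Tgm1, a transglutaminase, by 6.64 ± 0.86. Stat3 (0.34) and S100a10 (0.78) were the 2 members that did not pass, named after their values were seen. General astrocyte genes moved little beside these: 2 of 13 rose, the glutamate transporter Slc1a3 (0.60 ± 0.13) and Aldh1l1 (0.42 ± 0.10), and the list median was 0.02. The water channel Aqp4 stood at 560 to 657 CPM in sham and at 818 to 1050 CPM in Nkx6.1 cords without overlap, and did not pass (adjusted p = 0.102).

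Of 12 genes of neural stem and progenitor cells, 3 rose, where 6.37% of all genes rose: Vim, Nes and Sox9. Nes, nestin, stood at 14.5 to 19.8 CPM in sham and at 46.5, 38.1 and 124 CPM in Nkx6.1 cords (1.96 ± 0.39, adjusted p = 0.00149), and Sox9, a factor of progenitors and astrocytes, at 43.6 to 50.2 CPM and 76.4, 76.1 and 109 CPM (0.92 ± 0.17, adjusted p = 0.000633). Reactive astrocytes also express these 3 genes, and Vim is a member of both lists. Pax6 stood at 0.73 ± 0.23 and did not pass (adjusted p = 0.0541). Of 9 immature neuron genes, 0 were called by edgeR on all libraries or by DESeq2, with 0 at an unadjusted p under 0.05. Of 18 ventral spinal transcription factors, the group to which Nkx6-1 belongs, Olig2 fell (0.821% of all genes fell) and none rose. Olig2, a factor of motor neuron progenitors in the embryo and of the oligodendrocyte lineage in the adult, stood at 88.1, 82.7 and 89.6 CPM in sham and at 62.2, 53.5 and 61.0 CPM in Nkx6.1 cords (-0.56 ± 0.10, adjusted p = 0.000482). It fell with each of the 6 libraries left out. The motor neuron and V2 interneuron gene Lhx3 stood at a log2 fold change of -0.99 ± 0.47 and did not pass. Of 13 dorsal factors and 13 Hedgehog pathway genes 0 were called by edgeR on all libraries or by DESeq2, with 0 and 2 at an unadjusted p under 0.05. With edgeR on the 6 libraries alone, 2 Hedgehog pathway genes and 1 immature neuron gene were called lower. Of 19 Notch pathway genes 1 rose, the target Hey2 (0.85 ± 0.18, adjusted p = 0.00218), a share near that of all genes.

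Genes of the fibrotic scar rose in part, and unevenly. Of 22 tested, 10 rose and none fell, where 6.37% of all genes rose, and the median was 1.59. Between the groups 20 of the 22 had no overlap, where 17.9% of all genes were higher without overlap. Col1a1, a chain of type I collagen, stood at 7.98, 8.06 and 15.8 CPM in sham and at 45.9, 36.8 and 285 CPM in Nkx6.1 cords (3.53 ± 0.76, adjusted p = 0.00346). Postn, periostin, stood at 0.0848 to 1.97 CPM in sham and at 8.21, 7.48 and 75.2 CPM (4.80 ± 0.96, adjusted p = 0.00164). Replicate 3 was several times above replicates 1 and 2 for both genes. Loxl2 rose by 2.23 ± 0.45 and Fn1, fibronectin, by 1.87 ± 0.42. Without Nkx6.1 replicate 3, 1 of the 22 was called, and 5 or 6 were called without any 1 sham library. With the 6 libraries alone 17 were called. Of 19 metalloproteinase genes 4 rose, among them Mmp12, the inhibitor Timp1 (3.98 ± 0.65) and Mmp19 (1.28 ± 0.35), with 2 called without Nkx6.1 replicate 3 or sham replicate 2 or 3. Of 19 genes of chondroitin sulfate proteoglycans and nets 2 rose, the hyaluronan receptor Cd44 (1.77 ± 0.31) and tenascin C, Tnc (1.72 ± 0.44). In that list 1 rose without Nkx6.1 replicate 3 or sham replicate 2 or 3, and with the 6 libraries alone 3 rose and 3 fell. Hapln1, the link protein of perineuronal nets, stood at 31.1 to 31.6 CPM in sham and at 15.7 to 16.5 CPM in Nkx6.1 cords, groups that did not overlap, and did not pass (-0.97 ± 0.42, adjusted p = 0.177).

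Some genes of vessels, ependyma and nerve and none of meninges were called by edgeR on all libraries, where 6.37% of all genes rose. Of 15 endothelial genes 2 rose, the adhesion molecule Icam1 (3.36 ± 0.44) and Vwf (1.67 ± 0.39). Of 12 pericyte and smooth muscle genes 3 rose, Anpep (3.82 ± 0.62), Tagln (2.14 ± 0.58) and Vtn (1.00 ± 0.31). Of 14 ependymal genes 2 rose, Dnahc11 (1.23 ± 0.27) and Rarres2 (0.92 ± 0.24). Of 13 Schwann cell genes 2 rose, among them Egr2 (4.36 ± 0.83). The 14 Schwann cell genes summed to 340 to 413 CPM in sham and 452 to 1199 CPM in Nkx6.1 cords, with none at 0 in either group, and the part of these cells in other results was not tested. With 1 library left out, 1 to 3 endothelial, 1 to 3 pericyte, 1 to 6 ependymal and 1 to 3 Schwann cell genes rose, and each count was 1 without Nkx6.1 replicate 3. The pericyte and ependymal counts were also 1 without sham replicate 2 or 3, the Schwann cell count without any 1 sham library, and the ependymal count was 6 without Nkx6.1 replicate 2. With the 6 libraries alone 6 pericyte, 4 ependymal and 4 Schwann cell genes rose, and with DESeq2 5, 6 and 5. Of 12 meningeal fibroblast genes 0 were called by edgeR and 1 by DESeq2, with 3 at an unadjusted p under 0.05 and summed levels of 508 to 559 CPM in sham and 543 to 773 CPM in Nkx6.1 cords.

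Of 20 cell cycle genes 6 rose (median 1.56), where 6.37% of all genes rose. Among the 6 were the topoisomerase Top2a and the mitotic cyclins Ccnb1 and Ccnb2. Top2a stood at 0.574 to 2.29 CPM in sham and at 3.88, 4.66 and 13.8 CPM in Nkx6.1 cords (2.48 ± 0.62, adjusted p = 0.0117). These calls rest on the whole set of libraries, since 0 were called without Nkx6.1 replicate 3, sham replicate 1 or sham replicate 3, and 1 without sham replicate 2. With DESeq2 10 were called. Among regeneration-associated genes 4 of 17 rose, Sprr1a, Atf3 (3.94 ± 0.56), Hspb1 (1.85 ± 0.48) and Smad1 (0.36 ± 0.11), with 2 called without Nkx6.1 replicate 3 and without sham replicate 2 or 3. Of 17 neurotrophic factors and receptors 2 rose, Hgf (1.81 ± 0.40) and Igf1 (2.03 ± 0.52). In that list 1 was called without Nkx6.1 replicate 3 or sham replicate 1 or 2, and 4 with the 6 libraries alone. Of 17 antioxidant genes 5 rose, among them Prdx6 (1.23 ± 0.24) and the metallothioneins Mt1 (1.29 ± 0.33) and Mt2 (1.71 ± 0.36), with 1 called without Nkx6.1 replicate 3, and 2 and 3 without sham replicates 2 and 3. Of 16 immediate early and stress genes 4 rose, Egr2, Junb, Trib3 and Ier2, with 1 called without Nkx6.1 replicate 3 or sham replicate 3 and 2 without sham replicate 2. Of 30 axon guidance genes 1 rose, the semaphorin receptor Plxnd1 (1.56 ± 0.31), a share below that of all genes.

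Cholesterol synthesis was the list with the most falls. Of 19 genes, 16 fell, where 0.821% of all genes fell, and all 19 were lower in every Nkx6.1 library than in every sham library, where 17.1% of all genes were lower without overlap. The median was -0.88. Hmgcs1, which makes the HMG-CoA from which the pathway starts, stood at 670, 599 and 654 CPM in sham replicates 1 to 3 and at 262, 343 and 268 CPM in Nkx6.1 replicates 1 to 3 (-1.14 ± 0.23, adjusted p = 0.00168). Idi1, the isomerase of the isoprene units, stood at 44.4, 44.8 and 43.6 CPM and at 17.0, 27.4 and 17.4 CPM (-1.11 ± 0.28, adjusted p = 0.0123). Both were named among the largest falls, for which no overlap between the groups was a condition.

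Further along the pathway, Fdps, which makes farnesyl diphosphate, stood at 90.3 to 101 CPM in sham and at 51.5, 46.1 and 42.6 CPM in Nkx6.1 cords (-1.03 ± 0.18, adjusted p = 0.000424). Fdft1, squalene synthase, changed by the smallest amount of the 4 genes with the smallest p and had the smallest p of all: it stood at 160, 144 and 149 CPM and at 98.0, 99.4 and 102 CPM (-0.60 ± 0.09, adjusted p = 0.000154). The sterol demethylase Cyp51 fell by 0.95 ± 0.17 on the log2 scale (adjusted p = 0.000635) and Sc4mol, the next demethylating enzyme, by 1.02 ± 0.16 (adjusted p = 0.000162). Insig1, the sterol sensor that holds back the SREBP factors, stood at 191 to 217 CPM in sham and at 104, 102 and 102 CPM (-1.01 ± 0.24, adjusted p = 0.00786). The Nkx6.1 replicates lay close to one another for Insig1, Fdft1 and Cyp51. Over the 134 genes that fell, replicate 3 was the lowest of its group in 41 (30.6%). The 3 members that did not pass were Dhcr7, Mvk and Lss, named after their values were seen, with adjusted p of 0.0519, 0.0616 and 0.0733. The number called was 8 without Nkx6.1 replicate 3, 9 without Nkx6.1 replicate 1, 15 without Nkx6.1 replicate 2 and 10 without each sham replicate.

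**Figure D3:**
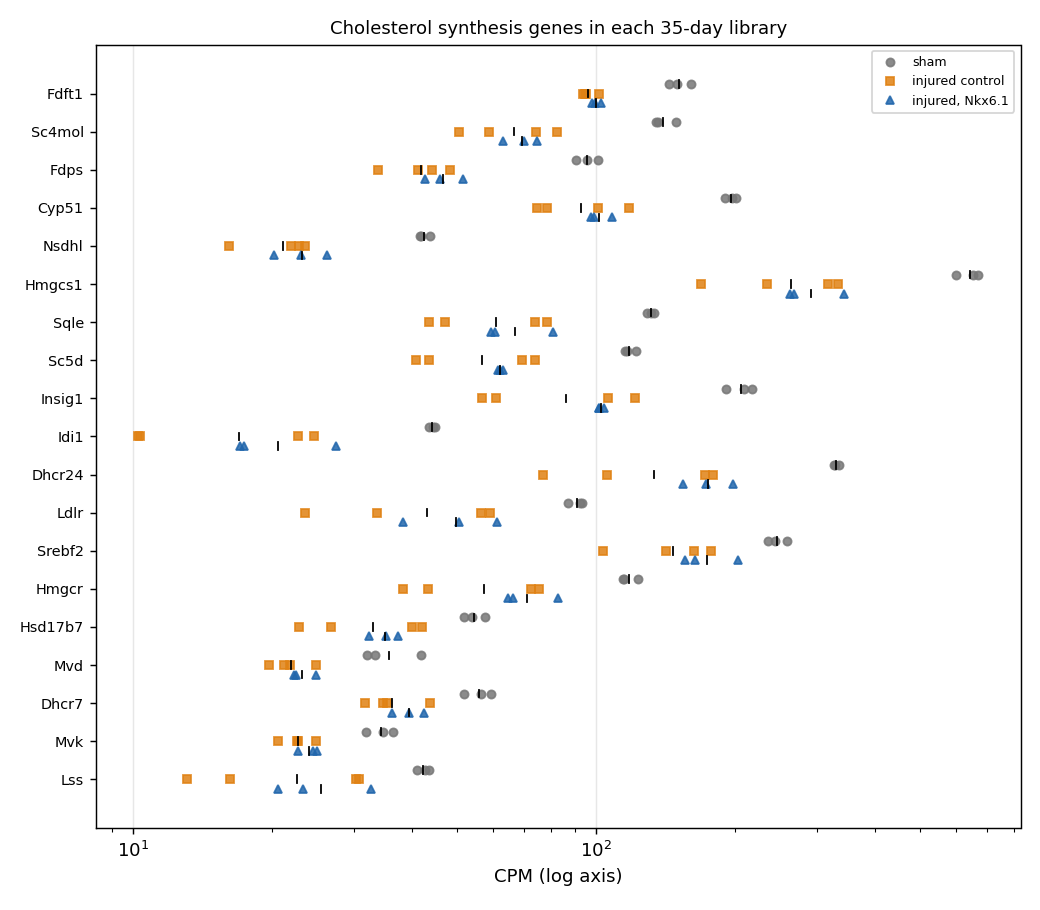
CPM (log axis) of the 19 cholesterol synthesis genes in each 35-day library, 3 sham, 4 injured control and 3 Nkx6.1 cords, ordered by p of Nkx6.1 against sham. Each point is 1 library and each short line a group mean. Every Nkx6.1 point lies to the left of every sham point of its gene, for Hmgcs1 at 262 to 343 CPM against 599 to 670 CPM.

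Myelin genes of the central nervous system were lower in part. Of 16 tested 2 fell, where 0.821% of all genes fell. These were Fa2h, which makes the hydroxylated lipids of myelin, and Mog, a surface protein of the sheath. Without overlap 12 of 16 were lower (17.1% of all genes). Fa2h stood at 212, 189 and 213 CPM in sham and at 115, 132 and 126 CPM in Nkx6.1 cords (-0.72 ± 0.19, adjusted p = 0.0165). Mog stood at 280, 253 and 271 CPM and at 182, 177 and 199 CPM (-0.53 ± 0.16, adjusted p = 0.0480). Ugt8a, the galactolipid enzyme, stood at 307 to 323 CPM and 153 to 199 CPM and did not pass (adjusted p = 0.0570). The list median was -0.39, and 0 or 1 of its genes were called with any 1 library left out (0 without Nkx6.1 replicate 1 or 3 or sham replicate 1 or 3). With DESeq2 4 were called lower, and with the 6 libraries alone 7. Among the single falls outside these lists were Lgr6 (-1.53 ± 0.37, adjusted p = 0.0101), a receptor for R-spondins, Slc5a11 (-1.47 ± 0.37), an inositol cotransporter, and the zinc finger gene Zfp804a (adjusted p = 0.0474).

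No gene of the neuronal lists was called by edgeR on all libraries or by DESeq2 in either direction, while 14 of 16 pan-neuronal genes were lower in every Nkx6.1 library than in every sham library (17.1% of all genes). Snap25, of the synaptic release machinery, stood at 2919, 3071 and 2943 CPM in sham and at 2246, 1978 and 1832 CPM in Nkx6.1 cords (-0.56 ± 0.26, adjusted p = 0.219, unadjusted p = 0.0431). Map2, a protein of dendrites, stood at 841 to 896 CPM and 607 to 783 CPM (-0.34 ± 0.18, adjusted p = 0.299). The medians were -0.33 for the 16 pan-neuronal genes, -0.27 for 15 glutamatergic genes, -0.39 for 16 GABAergic and glycinergic genes, -0.26 for 12 cholinergic and motor neuron genes, -0.31 for 23 voltage-gated channels and -0.03 for 12 dorsal horn peptides. At an unadjusted p under 0.05 stood 1, 2, 2, 0, 2 and 0 genes of these lists, all lower. When the test was fitted to the 6 libraries alone it called 3 pan-neuronal, 3 glutamatergic, 6 GABAergic and glycinergic and 8 channel genes lower.

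**Figure D4:**
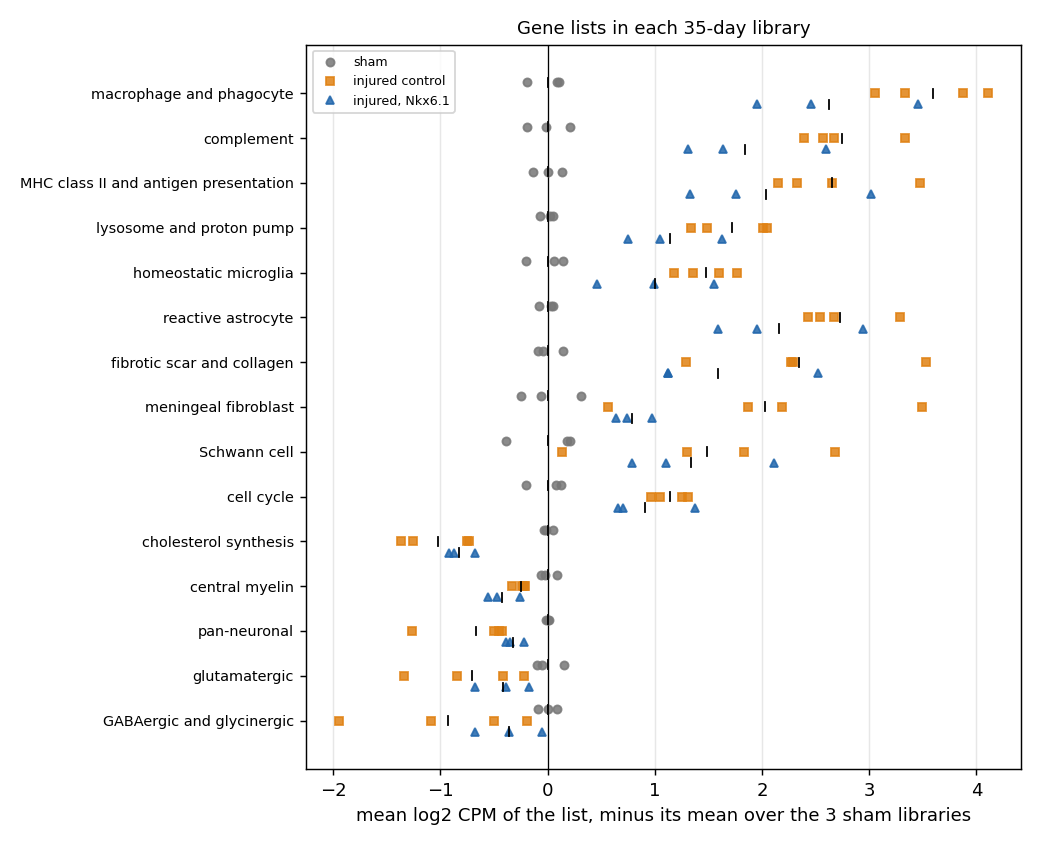
Mean log2 CPM of each gene list in each 35-day library, minus the mean of that list over the 3 sham libraries (horizontal axis). Points are libraries and short lines group means. The phagocyte list lies furthest right and the cholesterol list is below 0 in all 3 Nkx6.1 cords. The Nkx6.1 points of the phagocyte, complement and lysosome lists reach from left of the injured controls into their range.

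Injured control cords of the same day give the reference for injury without Nkx6.1. The comparison of injured control with sham uses the same 3 sham libraries, so its values are given side by side only. For the phagocyte list its median was 3.96 beside 2.99 for Nkx6.1, for complement 3.34 beside 2.44, for lysosome 1.83 beside 1.24, for reactive astrocytes 2.97 beside 2.43, for the scar list 2.40 beside 1.59 and for pan-neuronal genes -0.68 beside -0.33. For cholesterol synthesis it was -1.05 beside -0.88. In other lists the median of Nkx6.1 lay further from 0, with -0.24 beside -0.39 for central myelin, 1.59 beside 1.81 for type I interferon, 1.45 beside 1.56 for the cell cycle and 1.67 beside 1.84 for B and plasma cells. Set directly against injured control, no gene of 16314 passed the adjusted threshold in Nkx6.1 cords with edgeR (0%, smallest adjusted p = 0.326) or DESeq2, while 2006 had an unadjusted p under 0.05, of which 1417 were lower (8.69%) and 589 higher (3.61%). This does not show that the 2 injured groups were alike.

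Within that comparison, all 24 phagocyte genes were below injured control, where 54.7% of all genes were below it, and 14 of them at an unadjusted p under 0.05. The same held for all 17 complement genes, 12 of them at that p. Of 23 lysosomal genes 20 were below and 19 of the 23 were lower at that p. These counts depend on the libraries and the model. Over all genes, in either direction, the number at that p moved too. It was 2006 in the main fit, 539 with the 2 groups alone and 1283 without the libraries high in Xist. Without Nkx6.1 replicate 1, 2 or 3 it was 952, 858 or 3410. Without injured control replicate 1 or 4 it was 1839 or 766. With the 2 groups alone, 5 phagocyte, 7 complement and 5 lysosomal genes were lower at that p. Without the libraries high in Xist (Nkx6.1 replicate 2 and injured control replicates 1 and 4) the counts were 1, 2 and 0, with list medians of -0.05, -0.27 and -0.01. Without Nkx6.1 replicate 1 they were 9, 4 and 9, without Nkx6.1 replicate 2 they were 8, 4 and 5, without Nkx6.1 replicate 3 they were 22, 13 and 20, and without injured control replicate 1 they were 11, 8 and 9. Gpnmb stood at 650, 360, 446 and 850 CPM in injured control replicates 1 to 4, above the 117 to 317 CPM of the Nkx6.1 cords (-1.53 ± 0.44, unadjusted p = 0.00177). Of 12 meningeal fibroblast genes, all were below injured control at that p, and Slc47a1 stood at 1.91, 21.1, 22.6 and 81.9 CPM there against 2.16 to 5.28 CPM in Nkx6.1 cords. Injured control replicate 4 was the highest for that gene, and without that library 10 phagocyte, 7 complement, 8 lysosomal and 3 meningeal genes were lower at that p. Without Nkx6.1 replicate 3 the adjusted test called 72 genes, 67 of them lower, among them Lyz2 and C4b, and without injured control replicate 1 it called 7. For 19 cholesterol genes, 0 were below injured control, with a median difference of 0.14 and 0 at an unadjusted p under 0.05.

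Hox genes of the caudal clusters stood higher in the Nkx6.1 cords than in the sham and injured control cords of that day. These genes are expressed along the cord in an order that follows their position in the cluster, the last ones furthest back. Hoxc13 had no count in sham and was at 1.27, 2.66 and 3.01 CPM in Nkx6.1 replicates 1 to 3, at least 28.0-fold higher (adjusted p = 0.0287). It was at 0 to 0.0796 CPM in the 4 injured controls. Hoxc12 had no count in sham, 1 count in the 4 injured controls and 3.50, 4.91 and 4.48 CPM in Nkx6.1 cords, and did not pass (adjusted p = 0.0802). Hoxd11 stood at 2.19 to 5.66 CPM in sham, 0.297 to 4.22 CPM in injured control and 14.6, 21.5 and 17.0 CPM in Nkx6.1 cords (adjusted p = 0.348 against sham). For Hoxa11, Hoxc11 and Hoxd10 too, every Nkx6.1 library was above every sham and injured control library, and none of the 3 passed. Levels near or within the Nkx6.1 range also occurred in other groups of the series. In the 4 Gsx1 cords of 35 days Hoxd10 stood at 25.3, 12.6, 31.9 and 6.90 CPM (Nkx6.1 31.5 to 38.7 CPM) and Hoxd11 at 10.9, 1.40, 11.0 and 0.329 CPM. In the 3 injured controls of 14 days Hoxd11 stood at 21.0, 20.1 and 5.63 CPM. Over the 26 libraries outside the comparison Hoxc12 was over 1 CPM in 7 and Hoxc13 in 5. Hoxc13 was not called without Nkx6.1 replicate 3 or without any 1 sham replicate (adjusted p = 0.0945 to 0.0992).

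**Figure D5:**
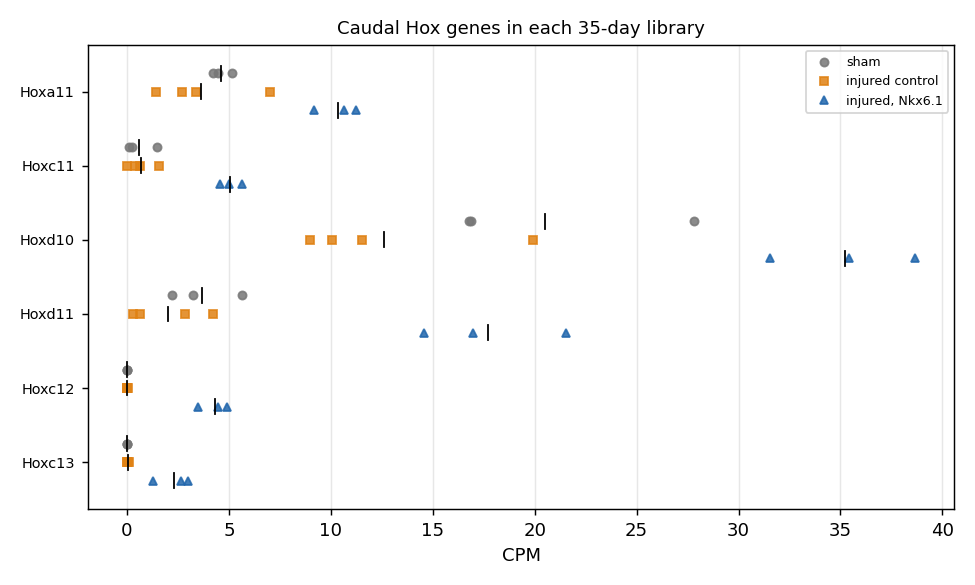
CPM of 6 caudal Hox genes in each 35-day library, 3 sham, 4 injured control and 3 Nkx6.1 cords. Each point is 1 library and each short line a group mean. All 3 Nkx6.1 points lie above all sham and injured control points for each gene, for Hoxd11 at 14.6 to 21.5 CPM against at most 5.66 CPM.

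Hoxc8, Hoxb9 and Hoxb8 were lower without overlap (-0.57 ± 0.23, -0.57 ± 0.26 and -0.39 ± 0.27) and did not pass. Hoxa10 (-0.08 ± 0.20), Hoxc10 (-0.09 ± 0.22) and Hoxc9 (-0.08 ± 0.21) overlapped. The cord level of the segments is not given in the sources used here, and the part of these differences in the other results was not tested as a cause. As a measurement, with the mean level of the 6 genes added to the model as a covariate, an alternative chosen after seeing the data, 1381 genes were called against sham, of which 1000 were among the 1174. The called members were then 20 of 24 for phagocytes, 12 of 17 for complement, 17 of 20 for reactive astrocytes and 10 of 19, all lower, for cholesterol synthesis. Against injured control, 7 phagocyte, 0 complement, 4 lysosomal and 2 meningeal fibroblast genes were then lower at an unadjusted p under 0.05, beside 14, 12, 19 and 12 without it. Over all genes, in either direction, 679 had that p with the covariate and 2006 without it. Still below injured control were 22 of 24 phagocyte (median -0.58), 16 of 17 complement (-0.49) and 21 of 23 lysosomal genes (-0.38). The 6 genes were higher in every Nkx6.1 library than in every injured control, so the covariate overlaps with this contrast.

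The difference between Nkx6.1 and sham was also set beside that at 3 days, in the same model. The 12 skeletal muscle genes had list medians of -0.39 at 35 days and 5.48 at 3 days, and 6 of them passed as smaller at 35 days. They summed to 94.1, 95.2 and 97.5 CPM in the sham and to 30.2, 711 and 64.4 CPM in the Nkx6.1 libraries of 3 days, so 1 library was high. Without that library, replicate 2, 0 of the 12 passed with edgeR and 1 had an unadjusted p under 0.05, and its part in the other changes over time was not tested. Tnnc2 (-11.12), Myh2 (-9.66), Myh1 (-8.27) and Tcap (-7.36), genes of the muscle fibre, had the most negative log2 differences by the naming rule. Of 20 cell cycle genes 18 had a smaller difference at 35 than at 3 days (8.46% of all genes), with list medians of 1.56 and 4.05. For Top2a the log2 fold change was 2.48 at 35 days and 5.58 at 3 days (difference -3.09, adjusted p = 0.0206). A smaller difference at 35 days was also found for 11 of 23 lysosomal genes, 6 of 24 phagocyte genes and 6 of 20 reactive astrocyte genes. A higher one was found for 10 of 23 channel genes and 6 of 16 pan-neuronal genes (6.90% of all genes), and Snap25 stood at -0.56 against -1.79 (difference 1.23, adjusted p = 0.0302). Of the 19 cholesterol genes 0 passed this test with edgeR and 1 had an unadjusted p under 0.05, with list medians of -0.88 at 35 days and -1.18 at 3 days. In all 2506 genes passed. At 3 days Xist was over 100 CPM in 2 of the 3 sham libraries and in none of the Nkx6.1 libraries, so it moved with the group there. Of those 2, sham replicate 1 also held the Y-linked Ddx3y, at 19.1 CPM. With an Xist term and all libraries 2811 genes passed. Leaving out the libraries high in Xist left 1 sham library at 3 days, assumed to vary like the other groups, and 25 genes passed. The count was 4729 without Nkx6.1 replicate 3 of 3 days, 812 without replicate 2 of that group, and 1078 to 1490 without replicate 1 of that group, Nkx6.1 replicate 1 or 2 or sham replicate 1 or 2 of 35 days, or sham replicate 2 or 3 of 3 days.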

How the data were processed

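Bulk RNA-seq of 32 libraries was used, 6 of which form the comparison. The values deposited by the authors are raw counts, 23420 gene symbols by 32 libraries. The submitters' processing notes name HISAT2, SAMtools, HTSeq, DESeq2, mm10 and GRCm38, with neither role nor version. How strand and multiply matching reads were handled is not given in the sources used here. Counts of overlapping, antisense or near-identical genes (histocompatibility and interferon-inducible families, globins, Hotair beside Hoxc11) are therefore uncertain as to their source. Columns were matched to samples by the identifier in each label, with 0 left over.

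The test was the quasi-likelihood test of edgeR 4.0.16 in R 4.3.3, after TMM scaling and filterByExpr with a minimum count of 10 and total of 15, which left 16314 genes. All 32 libraries entered 1 model of 10 groups (22 residual degrees of freedom, 4.4 prior, common biological coefficient of variation 20.8%). A call is a Benjamini-Hochberg adjusted p under 0.05 over all genes tested. Errors of log2 fold changes are standard errors. Levels are CPM on TMM-scaled totals. Bounds set sham to 3 counts over the group, and intervals of ratios are exact binomial at 95% and cover counting error only. No pair of replicates was as close as counting noise (lowest chi-square per degree of freedom 3.91). Counts were simulated from mean levels over all 10 groups, with 1 dispersion per gene for every group and changed genes over 1 CPM. Of 16160 genes tested, 70% of 100 changed 2-fold and 92% of 100 changed 4-fold were called, and 6.36% of calls were false. Real groups differed in spread (chi-square per degree of freedom 3.91 to 7.94 in sham and 14.8 to 41.6 in Nkx6.1 pairs), so these shares may not hold for the data.

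The 48 gene lists, the members and the tests were chosen with earlier results of these data known. Named genes were Nkx6-1 and Gsx1, the 8 largest rises and 8 largest falls among called genes with a mean of at least 1 CPM, no overlap and no predicted name, 4 of each sign for the other 2 comparisons, and the 4 members of smallest p of each list described, of which a few are left out of the text. Of the listed symbols, 7 were not in the table under any name tried. Promoters come from RefSeq (GRCm38.p6), where 92.1% of symbols in the table were among RefSeq gene names. Promoters on chromosome 18 were left out, and the 27025 genes with a promoter entry are counted without them. Alternatives were DESeq2 1.42.0, other scalings, no filter, added covariates, the 2 groups alone, a replicate block and each library left out.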

Additional observations from a re-analysis of the deposited data

Results flagged for a closer look

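The difference between Nkx6.1 and sham was not the same at 35 as at 3 days for 2506 genes, by the interaction term of edgeR's quasi-likelihood test at an adjusted p under 0.05. The values below are the log2 fold change at 35 days minus that at 3 days for genes named above that passed. Groups of 3 are too small for a test of outlying samples.

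Muscle genes had the most negative values, with 1 Nkx6.1 library of 3 days high for them: Tnnc2 -11.12, Myh2 -9.66, Myh1 -8.27 and Tcap -7.36. Genes of division and of the lesion had smaller differences at 35 days: Spp1 by -4.22, the cyclin Ccnb2 by -3.31, Top2a by -3.09, Tnc by -2.43, C3ar1 by -2.33 and Fabp5 by -2.10. Cd44 stood at -1.79, S100a10 at -1.52, Cd109 at -1.41, Junb at -1.25 and Abca1 at -1.12. Olig2 and Aldh1l1 both stood at -0.68, and Lamp1 and Stat3 both at -0.66.

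Positive values were found for Slc47a1 (7.38), Igfbpl1 (6.31) and Wisp2 (5.83). Vtn stood at 1.35, Snap25 at 1.23, Cd55 at 1.08, Nkx6-1 at 1.06, Hey2 at 1.00 and the glutamate transporter Slc1a3 at 0.67. For Nkx6-1 this includes a lower level than sham at 3 days. There it stood at 5.15 ± 1.34 CPM in Nkx6.1 cords and 7.92 ± 0.28 CPM in sham (SD, n = 3 each). Its log2 fold change at 3 days was -0.58 ± 0.23 SE (adjusted p = 0.0443, edgeR's quasi-likelihood test without the expression filter). The count of 2506 was 2811 with an Xist term in the model and 25 without the libraries high in Xist, which leaves 1 sham library at 3 days.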

How the results depend on the processing

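The 1174 genes called against sham were 1194 with RLE size factors, 1248 with upper-quartile factors, 1171 without the expression filter and 1560 with DESeq2. With the 2 groups alone 1659 were called, 65.1% of them higher beside 88.6% of the 1174. Without the libraries high in Xist 750 were called, and with 1 library left out 425 to 1232. Deviations from the group mean had r across genes of 0.0164, -0.131 and -0.287 between same-numbered sham and Nkx6.1 replicates. Between same-numbered injured control and Nkx6.1 replicates r was 0.167, 0.4 and -0.267. Genes are not independent replicates, so these values cannot decide whether the numbers pair the samples. A replicate block in the 2 groups alone called 539, of which 444 were among the 1174. Against injured control the count of 0 became 1 (Hoxc12) in those groups alone and was 0 to 72 with 1 library left out. For the change from 3 to 35 days the 2506 became 1437 with the caudal Hox covariate, 1002 with the replicate block, 2811 with an Xist term, 25 without the libraries high in Xist, and 812 to 4729 with 1 library left out. Of the named genes, 6 changed sign. With 1 library left out, the log2 fold change was -3.92 to 0.72 for Myh1, -3.26 to 0.37 for Myh2 and -3.55 to 1.06 for Tnnc2, above 0 without sham replicate 1. It was -0.71 to 0.0061 for Nmu, -0.43 to 0.11 for Nts and -0.47 to 0.16 for Pax8, above 0 without Nkx6.1 replicate 3. The setting under which most named genes lost their call was the one without Nkx6.1 replicate 3 (44 genes). The cause of these differences was not tested. Genes with few counts in sham, such as Cd4, have wide counting intervals, and with 3 libraries a group 1 library can decide a call.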
